A study of Mus musculus with 6 samples.

Results

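The core circadian clock loop was examined in livers of WT and *Txndc5*-deficient (KO) mice as the 10 genes *Arntl*, *Clock*, *Npas2*, *Per1*, *Per2*, *Per3*, *Cry1*, *Cry2*, *Nr1d1* and *Nr1d2*, chosen by symbol among the 16123 genes of the expression table, and all 10 were listed there. The animals were male C57BL/6 mice 2 months old, given a purified chow diet for 4 weeks and fasted for 16 h before sacrifice, in both genotypes. WT animals carried the strain label C57BL/6Rj and KO animals C57BL/6JRj-*Txndc5*<em2Mdnp>/Ciba. The KO line descends from a single founder in which exon 3 of *Txndc5* was deleted with CRISPR. The study states that WT and KO males both came from heterozygous crosses. Each library was made from poly-A RNA of a pool of mice (3 by the methods, although the animal totals given elsewhere do not match this), with 3 pools per genotype (WT pools numbered 1, 2 and 5, KO pools numbered 2, 3 and 4). The mice lived on a light-dark cycle, and the time of day at which the livers were taken is not given in the sources used here.

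The clock of a liver cell is a feedback loop of transcription. BMAL1, the product of *Arntl*, pairs with CLOCK or with its relative NPAS2, binds the E-box and activates the *Per*, *Cry* and *Nr1d* genes; PER and CRY proteins then block the activator pair. REV-ERBα and REV-ERBβ, the products of *Nr1d1* and *Nr1d2*, repress *Arntl*, *Clock* and *Npas2* through the RORE, a site that ROR receptors use to activate the same genes, and a further site, the D-box, is bound by the activators DBP, TEF and HLF and by the repressor NFIL3. In liver, most of these transcripts cycle over the day, with *Arntl* and the *Per* genes at nearly opposite times, and feeding and fasting can shift them.

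The promoters below show where these 3 sites occurred, and each was chosen because its window held a match. The windows are RefSeq sequences on GRCm38.p6 from 250 bases before to 50 bases after an annotated transcript start, read 5′ to 3′ on the strand of the gene. Both strands were searched for the E-box as CACGTG, the D-box as TTATG, any base and AA, and the RORE as TAGGTCA, and capitals mark the matches.
*Arntl*, chr7:113207261-113207560, plus strand: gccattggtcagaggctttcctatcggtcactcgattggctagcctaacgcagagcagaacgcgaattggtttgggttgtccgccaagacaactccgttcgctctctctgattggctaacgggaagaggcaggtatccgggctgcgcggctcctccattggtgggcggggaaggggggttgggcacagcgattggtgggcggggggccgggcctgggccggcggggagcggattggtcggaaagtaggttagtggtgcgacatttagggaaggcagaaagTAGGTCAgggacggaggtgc
*Per1*, chr11:69098699-69098998, plus strand: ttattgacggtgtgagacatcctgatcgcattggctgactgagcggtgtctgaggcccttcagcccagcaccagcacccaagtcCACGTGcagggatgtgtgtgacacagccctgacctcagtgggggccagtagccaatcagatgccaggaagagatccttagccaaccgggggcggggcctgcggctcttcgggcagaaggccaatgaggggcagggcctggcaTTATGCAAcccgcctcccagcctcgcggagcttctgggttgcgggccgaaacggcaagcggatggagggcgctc
*Per3*, chr4:151044616-151044915, minus strand: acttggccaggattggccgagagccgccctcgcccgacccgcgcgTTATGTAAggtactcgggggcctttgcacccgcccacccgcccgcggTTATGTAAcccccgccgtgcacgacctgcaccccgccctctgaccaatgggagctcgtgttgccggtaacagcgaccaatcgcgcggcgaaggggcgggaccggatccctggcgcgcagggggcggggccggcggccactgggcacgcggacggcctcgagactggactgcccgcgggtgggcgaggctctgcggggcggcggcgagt
*Cry1*, chr10:85185005-85185304, minus strand: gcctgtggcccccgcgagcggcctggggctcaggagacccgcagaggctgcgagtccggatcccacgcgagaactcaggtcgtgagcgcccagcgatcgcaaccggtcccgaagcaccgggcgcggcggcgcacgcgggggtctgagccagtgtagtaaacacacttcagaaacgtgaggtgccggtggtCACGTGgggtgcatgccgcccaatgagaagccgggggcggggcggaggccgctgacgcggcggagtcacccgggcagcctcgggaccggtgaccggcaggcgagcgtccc

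The RORE of *Arntl* began 31 bases into its transcript. In *Per1* the E-box began at position -166 from the start and the D-box at -24. *Per3* held 2 D-boxes, at -205 and -158, and *Cry1* an E-box at -60. None of these matches overlapped another. RefSeq windows were found for 9 of the 10 genes (13 windows), *Per2* having none here. An E-box occurred in windows of 2 genes, a D-box in those of 2 and a RORE in that of 1, while 5 genes held none of the 3. Among all 32817 promoter windows of the same length, 7.15% held the E-box, 3.39% the D-box and 2.61% the RORE, so each of these letter strings is found in many other promoters. A match describes the letters only, and clock genes also have sites outside such windows.

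To learn whether the clock genes differed between the genotypes, their expression values were compared. The table holds 1 value per gene and genotype, a signal of reads divided by library size factors that the authors combined over the 3 libraries, so the spread between pools cannot be read from it and no test was made on these values. The ratio of the KO over the WT value is pulled toward 1. In 624 genes whose reads per library had a single solution, with a sum of normalized reads above 60 and up to 400 and a deposited log2 ratio beyond 0.5, the log2 ratio of the reads was at least 1.15 times as far from 0 as that of the deposited values, with a median of 1.41 times.

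The genotype labels were checked with *Txndc5* itself, which was listed at 2697 in WT and 90.8 in KO, 29.7-fold lower. Hepatocyte markers, 8 of 8 in the table, were by far the highest of 8 marker lists, with a summed value of 2620840 in WT and 2445470 in KO, so that the tissue label of liver was met. Red cell markers were 118830 in WT and 180430 in KO in sum (log2 ratio 0.60), 3 of 6 past 1.5-fold higher, where 1.76% of all genes were. Past the same limit 1 of 6 Kupffer cell markers was higher and 1 of 6 lymphocyte markers lower, where 5.18% of all genes were lower. The log2 ratio of the lymphocyte sums was -0.44, and no marker of the other lists was past the limit. The sums of 6 markers each were 2030 and 2379 for Kupffer cells, 2263 and 2186 for sinusoidal endothelium, 2498 and 2151 for stellate cells, 279 and 307 for cholangiocytes, 84.9 and 62.5 for lymphocytes and 16.3 and 15.7 for neutrophils (WT and KO). Of these markers 1, of neutrophils, was below 1 in both genotypes, and the part of these cells in the clock values was not tested. In such bulk RNA, fewer cells of a type and less RNA per cell cannot be told apart. The libraries held 44040160 to 46050030 clean reads, of which 91.63% to 93.66% were mapped.

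The 5 genes of the *Per* and *Cry* families, the negative arm of the loop, all had a higher value in KO than in WT, and the 5 genes of the activators and of the REV-ERBs all had a lower one. The median log2 ratio of KO over WT was -0.91 for the 3 activators, 0.44 for the 3 *Per* genes, 0.32 for the 2 *Cry* genes and -0.43 for the 2 REV-ERB genes, beside -0.04 for all genes. Past 1.5-fold, the limit used here to count a gene, 1 clock gene was higher in KO (*Per3*) and 2 were lower (*Arntl* and *Clock*). This count rests on the combined values. In the recovered reads described further on, the log2 ratio of the means was -1.38 for *Arntl* and -0.60 for *Npas2*, both past the limit, and without the library WT-A it was -0.32 and -0.03, both within it. Among all genes 1.76% were higher and 5.18% lower by that limit, 6.93% in either direction. The clock genes were chosen with earlier results of these data known, so these shares give a description and no test. When a ratio 25% above 1, or its inverse, was enough, 3 clock genes counted as higher and 5 as lower, beside 8.55% and 15.5% of all genes. At 2-fold the clock gave 0 and 0, beside 0.174% and 0.595%. Of all genes, 6986 were higher and 9137 lower in KO.

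**Figure D1:**
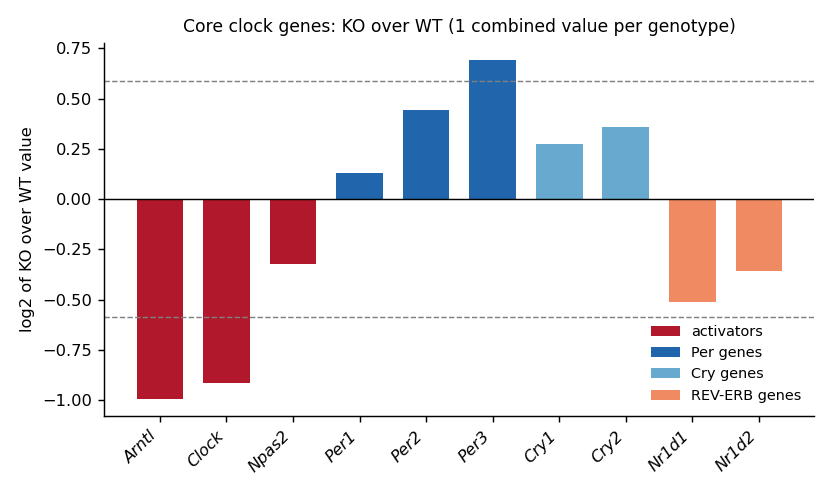
Bars give the log2 ratio of the KO over the WT value for each clock gene, 1 combined value per genotype and therefore without error bars, coloured by role, with dashed lines at 1.5-fold. *Arntl* (-0.99) and *Clock* (-0.91) lay below the lower line and *Per3* (0.69) above the upper one, while every *Per* and *Cry* bar was above 0 and every other bar below it.

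*Arntl* (NCBI Gene 11865, chr7:113207465-113314126 on the plus strand in GENCODE M21, GRCm38), the gene of the activator BMAL1, stood at 43.4 in WT and at 21.8 in KO, 1.99-fold lower (log2 ratio -0.99). Only 0.651% of the genes in the table had a lower ratio. *Clock* (NCBI Gene 12753, chr5:76209868-76304792, minus strand), whose product is the partner of BMAL1, had 186 in WT and 98.9 in KO, 1.88-fold lower (log2 ratio -0.91), with 0.999% of all genes lower still. Both partners of the main activator pair were within the lowest 1% of KO over WT ratios of the combined values. For *Arntl* this rests on 1 library, WT-A (log2 ratio of the mean reads -1.38 with it and -0.32 without it), and for *Clock* no reads per library are known. *Npas2* (NCBI Gene 18143, chr1:39193731-39363236, plus strand), which can stand in for *Clock*, was the weakest of the 10 with 7.30 in WT and 5.84 in KO, and 15.5% of all genes lay below its log2 ratio of -0.32.

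The *Per* genes, whose products form the repressing complex with CRY proteins, differed in size of change. *Per3* (NCBI Gene 18628, chr4:151003652-151044665, minus strand) had 73.6 in WT and 119 in KO, 1.62-fold higher (log2 ratio 0.69), and 0.881% of all genes had a higher ratio. *Per2* (NCBI Gene 18627, chr1:91415982-91459324, minus strand) had 160 in WT and 218 in KO, 1.36-fold higher (log2 ratio 0.44), above 95.9% of all genes. *Per1* (NCBI Gene 18626, chr11:69095217-69109960, plus strand), which also responds directly to glucocorticoids, had 754 in WT and 823 in KO, 1.09-fold higher (log2 ratio 0.13). The order of the ratios in this family was therefore *Per3*, *Per2* and *Per1*, the reverse of the order of their values.

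The *Cry* genes encode the main repressors of the BMAL1 and CLOCK pair, and their ratios lay between those of *Per1* and *Per2*. *Cry2* (NCBI Gene 12953, chr2:92403646-92434043, minus strand) had 612 in WT and 786 in KO, 1.28-fold higher (log2 ratio 0.36). *Cry1* (NCBI Gene 12952, chr10:85131700-85185064, minus strand) had 51.1 in WT and 61.8 in KO, 1.21-fold higher (log2 ratio 0.27).

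The REV-ERB genes were on the lower side with the activators. They are direct targets of the activator pair, as are the *Per* and *Cry* genes, which were on the higher side. *Nr1d1* (NCBI Gene 217166, chr11:98767932-98775333, minus strand) had 3497 in WT and 2455 in KO, 1.42-fold lower (log2 ratio -0.51), and 7.02% of all genes had a lower ratio. *Nr1d2* (NCBI Gene 353187, chr14:18204054-18239127, minus strand) had 232 in WT and 181 in KO, 1.28-fold lower (log2 ratio -0.36), with 13.3% of all genes lower. Exons of *Nr1d1* share 263 of 3077 bases (8.55%) with *Thra*, the thyroid hormone receptor gene on the opposite strand. *Thra* had 453 in WT and 359 in KO (log2 ratio -0.33). The library protocol states no strand, so reads from the shared bases cannot be told apart. *Cry2* and *Arntl* share smaller stretches, 4.67% and 0.439% of their exon bases, with the opposite-strand genes *D930015M05Rik* and *Gm45355*.

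Levels between genes were set side by side per kb of the gene length listed in the table. *Nr1d1* was by far the highest clock gene, with 1257 per kb in WT and 882 per kb in KO. *Per1* (162 and 177 per kb) and *Cry2* (152 and 196 per kb) followed, then *Nr1d2* (49.96 and 38.9 per kb) and *Per2* (27.4 and 37.3 per kb). *Clock* (19.4 and 10.3 per kb), *Cry1* (16.8 and 20.4 per kb), *Arntl* (14.9 and 7.47 per kb) and *Per3* (12.3 and 19.8 per kb) formed a close set in WT, and *Npas2* was lowest (1.75 and 1.40 per kb). Between WT and KO some neighbours changed places. *Cry2* passed *Per1*, *Clock* went from above to below both *Cry1* and *Per3*, and *Arntl*, below *Cry1* in both genotypes, went from above to below *Per3*. Its place above *Per3* in WT was not seen in every library, since WT-B had 6.62 normalized reads per kb of *Arntl* and 7.77 of *Per3*. Where reads per library were known, WT neighbours did not differ beyond their spread. In WT libraries *Cry1* ranged from 12.0 to 25.0 normalized reads per kb, *Arntl* from 6.62 to 33.0 and *Per3* from 7.77 to 18.5. In KO libraries *Arntl*, from 4.30 to 8.87 per kb, did not reach the lowest library of *Per3* (11.1) or of *Cry1* (13.3). *Npas2* stayed at or below 3.12 per kb in all 6 libraries.

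**Figure D2:**
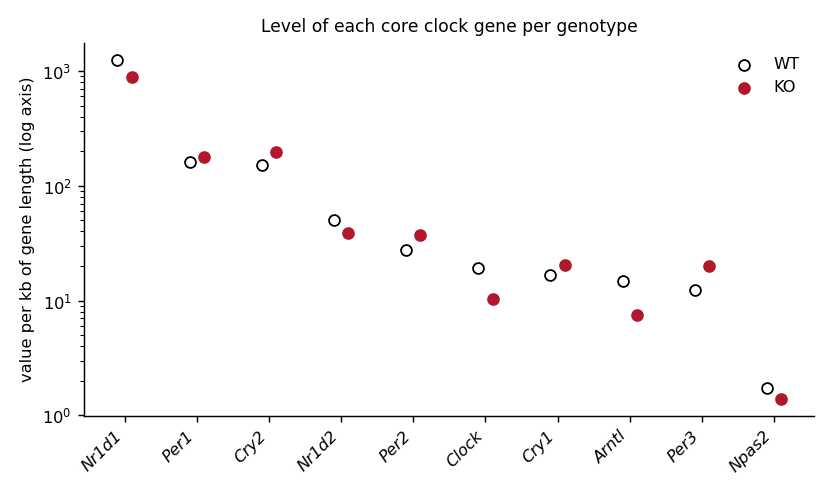
Points give the value per kb of gene length on a log axis for each clock gene, open circles for WT and filled circles for KO, 1 combined value per genotype, with genes ordered by the WT level. *Nr1d1* stood highest (1257 and 882 per kb) and *Npas2* lowest (1.75 and 1.40 per kb), and the KO point was below the WT point in *Nr1d1*, *Nr1d2*, *Clock*, *Arntl* and *Npas2*.

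The spread between pools became visible where the reads of single libraries could be recovered. Reads are whole numbers, so a combined value of few reads can be taken apart into the reads of the 6 libraries once the worth of 1 read in each is known, and this gave a solution for 99.8% of the 8081 genes whose normalized reads added up to at most 400. Of 979 genes with sums above 400 and up to 600, only 53.7% were solved. Among the clock genes the recovery succeeded for *Arntl*, *Npas2*, *Per3* and *Cry1*, of which *Per3* (sum 578) lay in that higher range. *Clock*, *Per1*, *Per2*, *Cry2*, *Nr1d1* and *Nr1d2* had sums above the limit of 600, so their spread between pools is unknown. Recovered libraries carry no pool number and are called A, B and C from the largest to the smallest size factor in each genotype. The A libraries are called the largest in this sense only, since clean reads ranged just from 44040160 to 46050030 over the 6 libraries. The library WT-A stood apart from the rest, being the highest of the 6 in 41.7% of 3833 genes, where each other library was highest in 9.55% to 13.4%.

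*Arntl* had 25.9, 12.6 and 15.8 normalized reads in KO libraries A, B and C (34, 13 and 14 reads) and 96.3, 19.3 and 25.7 in WT libraries A, B and C (118, 17 and 21 reads). A single library, WT-A, was far above the other 5, and the genotypes overlapped, since KO-A was higher than WT-B and WT-C. The means were 18.1 ± 6.96 in KO and 47.1 ± 42.8 in WT (SD, n = 3 pools each), so the genotypes differed by less than the pools of WT did (p = 0.3 in an exact permutation test, two-sided, where 3 against 3 cannot go below 0.1). Without WT-A the WT mean was 22.5, and the log2 ratio of the means went from -1.38 to -0.32. WT-A was 4.28 times the mean of the other WT libraries for *Arntl*, a ratio reached by 6.99% of 3833 genes with recovered reads, against a median of 1.39 times. The part of this library in the lower *Arntl* value of KO was not tested beyond these values.

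*Npas2*, with 2 to 16 reads per library, followed a similar order. Its normalized reads were 7.62, 5.79 and 2.26 in KO libraries A, B and C and 13.1, 4.55 and 6.11 in WT libraries A, B and C. WT-A was again highest and the genotypes overlapped (5.22 ± 2.73 in KO and 7.91 ± 4.53 in WT, SD, n = 3, exact permutation test, p = 0.5). Without WT-A the log2 ratio of the means went from -0.60 to -0.03.

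*Per3* had 176, 128 and 66.6 normalized reads in KO libraries A, B and C and 111, 46.6 and 48.9 in WT libraries A, B and C. KO-A and KO-B were above every WT library, and KO-C lay between WT-A and the other WT libraries. The means were 124 ± 54.9 in KO and 68.9 ± 36.6 in WT (SD, n = 3), and the exact permutation test gave p = 0.2. Leaving out WT-A, the library that was highest in WT, took the log2 ratio of the means from 0.84 to 1.37. These reads were the single solution, among 5, that kept the direction and the size of the deposited ratio, so the direction is not independent of that value.

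*Cry1* had 40.4, 57.0 and 91.5 normalized reads in KO libraries A, B and C and 37.6, 36.4 and 75.8 in WT libraries A, B and C. Here the A libraries, those of the largest size factor, were not the highest, and in both genotypes library C held the most. The genotypes overlapped (62.9 ± 26.1 in KO and 49.9 ± 22.4 in WT, SD, n = 3, exact permutation test, p = 0.5). WT-A was 0.669 times the mean of the other WT libraries, and KO-A 0.544 times that of the other KO libraries, where the medians over 3833 genes with recovered reads were 1.39 and 1.27 times.

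**Figure D3:**
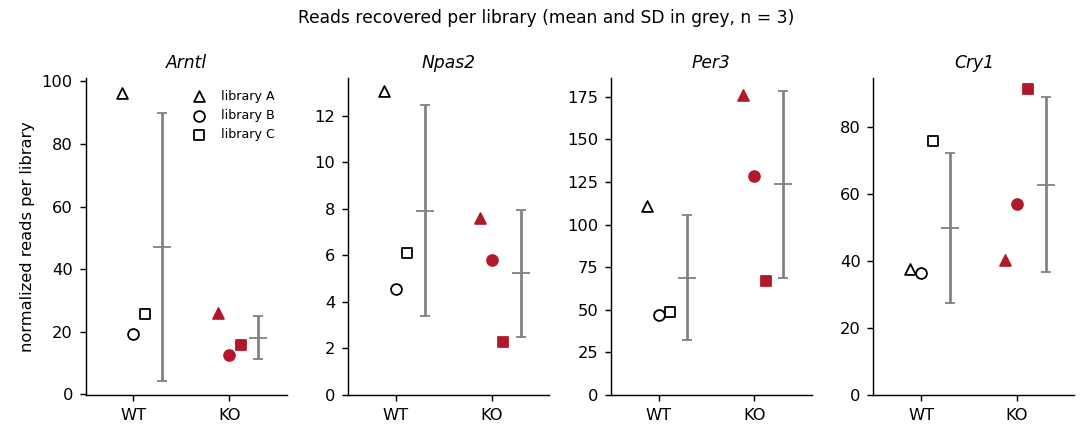
Points give the normalized reads of each recovered library for the 4 clock genes that could be resolved, with WT open and KO filled, marker shapes for libraries A, B and C within each genotype, and grey bars for the mean and SD of 3 libraries. The genotypes overlapped in every panel, and WT-A (open triangle) was far above the other WT libraries for *Arntl* (96.3 against 19.3 and 25.7).

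The genotypes overlapped in each of the 4 genes, where 5.66% of 3833 genes had genotypes that did not overlap. All 4 single-gene permutation tests were therefore above the smallest p they allow, which with 3 against 3 restates the overlap. In limma, fitted to the log2 normalized reads of 3833 genes with Benjamini-Hochberg adjustment over them, 0 of the 3 clock genes in the fit passed an adjusted p of 0.05 and 0 had an unadjusted p under 0.05. Of the 3833 genes 0.0261% and 1.85% did so. edgeR's quasi-likelihood test on the same reads gave 0 and 0 clock genes, with 1.88% of the 3833 genes at an unadjusted p under 0.05. The log2 difference of KO minus WT in limma was -1.04 for *Arntl* (SE 0.62, adjusted p = 0.999), 0.85 for *Per3* (SE 0.523, adjusted p = 0.999) and 0.33 for *Cry1* (SE 0.477, adjusted p = 0.999). *Npas2* entered only a fit without a filter on low values, with -0.51 (SE 0.565, adjusted p = 0.972). Leaving out WT-A changed the *Arntl* difference to -0.35 and the *Per3* difference to 1.247 (unadjusted p = 0.0358 and adjusted p = 0.982, where 3.52% of the 3833 genes had an unadjusted p under 0.05). Leaving out KO-A changed that of *Per3* to 0.54, and without KO-C the *Cry1* difference was 0.03 and without WT-C it was 0.67. With a term for the largest library of each genotype, the unadjusted p was 0.0226 for *Arntl* and 0.0438 for *Per3*, and the adjusted p 0.537 and 0.627. Under that term 7.83% of the 3833 genes had an unadjusted p under 0.05. The reads of *Per3* were chosen by the deposited direction and size, so its p-values are not independent of the deposited ratio.

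Each resolved clock gene was set beside the 3 genes whose log2 normalized reads followed it most closely over the 6 libraries, among 3832 genes (3833 for *Npas2*). Closest to *Arntl* were *Trp53inp1* (Pearson's r = 0.994), *Yes1* (r = 0.993) and *Ranbp6* (r = 0.992), all of them highest in WT-A. Closest to *Per3* were *Pfas* (r = 0.992), *BC021891* (r = 0.976) and *Rhoj* (r = 0.974), highest in KO-A. For *Cry1* they were *Alg8* (r = 0.988), *C1qtnf6* (r = 0.982) and *Slc15a5* (r = 0.980), highest in KO-C. For *Npas2* they were *Zfp9* (r = 0.994), *Gm14322* (r = 0.989) and *Bmp5* (r = 0.984). These values describe 6 libraries whose reads share size factors, and the highest of so many correlations over 6 points is high in any case.

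Beyond the loop, 27 modulators of the clock (kinases, ubiquitin ligases, ROR receptors and repressors) were all in the table, 13 with a higher and 14 with a lower value in KO. Their median log2 ratio was -0.06, beside -0.04 for all genes, and 3 were past 1.5-fold higher and 1 lower, where 1.76% and 5.18% of all genes were. *Bhlhe40*, a repressor that competes at the E-box, had 737 in WT and 1225 in KO (log2 ratio 0.73), and *Ciart*, another repressor of the activator pair, had 167 and 264 (log2 ratio 0.66). On the lower side was *Kdm5a*, a histone demethylase and partner of the activator pair, with 151 in WT and 96.8 in KO (log2 ratio -0.64). Of the remaining modulators, those with the highest values were *Huwe1* (log2 ratio 0.20), a ubiquitin ligase for REV-ERBα, and *Nono* (log2 ratio 0.03), which binds PER proteins. The modulator list was drawn up with earlier results of these data known, so its counts are a description and no test.

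Of 22 clock-controlled genes of liver, 13 were higher and 9 lower in KO. Their log2 ratios had a median of 0.07. The list was drawn up with earlier results of these data known, so its counts are a description and no test. The study itself lists *Lpin1* and *Cyp7a1* as changed in these data. Past 1.5-fold 5 of the 22 genes were higher and 2 lower, beside 1.76% and 5.18% of all genes. The D-box activators *Tef* (1573 in WT and 2448 in KO, log2 ratio 0.64) and *Hlf* (402 and 625, log2 ratio 0.64) were among them. *Dbp*, the third gene of that family and named after its value was seen, had 2899 and 3274 (log2 ratio 0.18). *Wee1*, a kinase that holds back entry into mitosis and a textbook E-box target, had 54.1 in WT and 126 in KO (log2 ratio 1.22). *Lpin1*, a phosphatidate phosphatase, had 786 and 1568 (log2 ratio 0.997), and *Usp2*, a deubiquitinase, had 637 and 956 (log2 ratio 0.59). Lower in KO were *Cyp7a1*, the rate-limiting enzyme of bile acid synthesis, at 804 and 374 (log2 ratio -1.11), and *Cdkn1a*, the cell cycle inhibitor p21, at 120 and 66.9 (log2 ratio -0.85). The remaining output genes with the highest values, *Por* (log2 ratio 0.11) and *Alas1* (log2 ratio 0.32), lay within the limit.

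Reads per library could be recovered for 2 of these output genes past the limit, in both cases with the deposited direction and size used to choose among solutions. *Wee1* had 156, 138 and 97.1 normalized reads in KO libraries A, B and C and 40.8, 64.8 and 44.0 in WT libraries A, B and C. Every KO library was above every WT library (131 ± 30.3 in KO and 49.9 ± 13.0 in WT, SD, n = 3), with p = 0.1 in the exact permutation test, the smallest it can give, where 3.21% of 3833 genes had every KO library above every WT library. That p restates the separation. The choice of reads required a ratio at least as large as the deposited one, so neither is a separate check of it. Most of the 3833 genes had a single solution and were not chosen in this way. *Cdkn1a* had 58.7, 85.9 and 44.0 in KO and 165, 80.8 and 127 in WT, and KO-B was above WT-B, so the genotypes overlapped (exact permutation test, p = 0.2). WT-A, the highest of the 6 libraries for *Arntl*, was the lowest for *Wee1*.

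**Figure D4:**
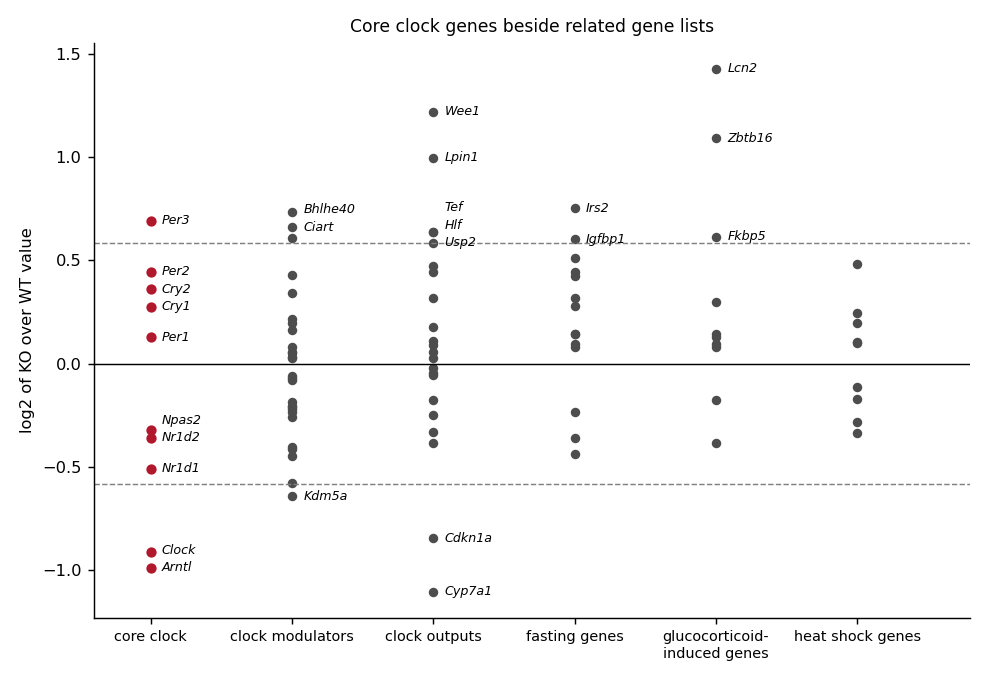
Points give the log2 ratio of the KO over the WT value of each gene, 1 combined value per genotype, for the 10 core clock genes (red) and for 5 lists of related genes (grey), with dashed lines at 1.5-fold and names on the clock genes and on list members described in the text. Clock outputs reached from -1.11 (*Cyp7a1*) to 1.22 (*Wee1*), a wider range than the core genes (-0.99 to 0.69), and no heat shock gene was past the limit.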

How the data were processed

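Liver poly-A RNA of 3 WT and 3 KO pools was sequenced and processed by the service the authors used. The submitters' processing notes name the mm10 build and HISAT2, Bowtie2, RSEM, StringTie, Cufflinks and GATK, without roles or versions. The authors deposited, per library, the counts of clean reads and percent values of mapped and ribosomal reads. The expression signal of 16123 genes was deposited as 1 value for each genotype, in reads divided by size factors. Their columns of log2 fold changes, p-values, adjusted p-values and calls were not used. Splicing event counts, which the authors deposited per library, were not used either.

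The planned design allowed for counts per library, and its branch for 1 value per genotype was used: the log2 of the KO over the WT value, with genes counted past 1.5-fold. Reads per library were recovered from 3 times the sum of the 2 genotype values, as the whole numbers of reads that fit the worth of 1 read in each library within the rounding of the deposited digits. That worth came from values shared by at least 20 single-read genes, and the higher value of such genes gave the genotype of the library. Of several solutions for a gene beyond a log2 ratio of 0.5, the only one with the deposited direction and at least the deposited size was taken. In all, 94.8% of 9060 genes with sums up to 600 were solved. Among 979 genes with sums above 400, the range of *Per3*, *Wee1* and *Cdkn1a*, 53.7% were solved. On simulated data 8197 of 8569 were solved, 8197 of them with the right reads. The simulated ratios were pulled toward 1 by a fixed factor, so the true reads always met the rule for choosing among solutions. That choice, used for *Per3*, *Wee1* and *Cdkn1a*, was therefore not tested by the simulation. The libraries gave 113303 to 269860 recovered reads, a small part of each, so genes with few reads have a large counting error.

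Genes with a sum of at least 60 entered limma on log2(normalized reads + 1). On simulated data of 3833 genes it called 88.5% of 200 genes changed 4-fold, and 5.01% of unchanged genes had an unadjusted p under 0.05. The simulation gave every gene the same dispersion and had no library that stood apart, as WT-A does here. Its share of genes called therefore does not tell how many changes would be found in these reads. Single genes were tested by two-sided exact permutation. The labels do not say whether mice were shared between pools, so p-values measure the spread between pools only. The study's methods state 3 mice per pool, while the animal totals in its results do not match that number, and how the animals were divided is not known.

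The 10 clock genes, the gene lists and the tests were chosen with earlier results of these data known. Genes named were all 10 clock genes, list members past 1.5-fold with the 2 highest of the rest, the 3 most alike genes per resolved clock gene, *Txndc5* and markers; a few list members are counted but not reported here by name. Positions came from GENCODE M21 on GRCm38 and promoters from RefSeq. Alternatives were another pseudocount, centring, fold limit, scaling, filter, each library left out and a term for the largest libraries; leaving out both of these and edgeR were added after seeing the data. Tools were R 4.3.3, limma 3.58.1, edgeR 4.0.16, Python 3.11.15 and scipy 1.17.1.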

Additional observations from a re-analysis of the deposited data

How the results depend on the processing

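With the limit set at a ratio 25% above 1, 3 clock genes were higher and 5 lower in KO (8.55% and 15.5% of all genes), and with 2-fold 0 and 0 (0.174% and 0.595%). The other settings tried for these counts, pseudocounts of 1 and 10 and centring on the median, moved neither count by over 1.5 times. On the reads recovered per library, leaving out WT-A brought *Arntl* within the limit (log2 ratio of the means from -1.38 to -0.32). All 30 alternative log2 ratios of the 10 clock genes kept their direction, but this was no check of it. A pseudocount cannot change a direction, and centring removed a median log2 ratio of only -0.0472, while the ratio nearest 0 was 0.13 (*Per1*). In 36 alternative fits of *Arntl*, *Per3* and *Cry1* the direction was kept and 0 genes passed an adjusted p of 0.05 (limma or edgeR; adjusted p from 0.537 to 1 for *Arntl*, 0.627 to 1 for *Per3* and 0.883 to 1 for *Cry1*). The fit without a filter and the fit with a term for the largest libraries cannot change the log2 difference. For *Per3* the deposited direction was used to choose the reads, so its kept direction is not a separate check. At an unadjusted p of 0.05, leaving out WT-A gave 1 clock gene and the term for the largest libraries gave 2. Leaving out each library in turn gave log2 differences from -1.48 to -0.35 for *Arntl*, 0.54 to 1.247 for *Per3* and 0.03 to 0.67 for *Cry1*, and leaving out both largest libraries gave -0.63, 0.94 and 0.45. The counts of the modulator, output, fasting, glucocorticoid and heat shock lists past 1.5-fold moved by no more than 1.5 times under both pseudocounts and centring. No paired analysis was possible because the genotypes share only 1 pool number and the recovered libraries carry no pool number. The values of *Clock*, *Per1*, *Per2*, *Cry2*, *Nr1d1* and *Nr1d2* rest on 1 combined value per genotype without a spread, and *Npas2* rests on 2 to 16 reads per library.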

Other observations

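Among 14 fasting genes of liver, all of these mice having been fasted, 11 were higher in KO. Their median log2 ratio was 0.21, beside -0.04 for all genes. Past 1.5-fold were *Irs2*, an adaptor of the insulin receptor, with 226 in WT and 381 in KO (log2 ratio 0.75), and *Igfbp1*, a binding protein of insulin-like growth factors, with 1905 and 2893 (log2 ratio 0.60), and 0 were past the limit on the lower side. Of all 16123 genes, 6986 were higher in KO, and 1.76% were past 1.5-fold higher and 5.18% lower. The most abundant of the others, *Cyp4a10*, a fatty acid hydroxylase, had a log2 ratio of 0.14. The fasting list was drawn up with earlier results of these data known, so its counts are no test.

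Of 10 genes that glucocorticoids induce, 8 were higher in KO, beside 6986 of all 16123 genes. *Per1* was among them with a log2 ratio of 0.13, and it is also counted in the clock loop. Their median log2 ratio was 0.14, 3 past 1.5-fold higher and 0 lower, where 1.76% and 5.18% of all genes were. *Lcn2*, also a gene of the acute phase response, had 147 in WT and 396 in KO (log2 ratio 1.43). The study lists *Lcn2* as changed in these data, and the gene list was drawn up with earlier results known, so its counts are no test. *Zbtb16*, a transcription factor, had 90.4 and 193 (log2 ratio 1.09), and *Fkbp5*, a co-chaperone of the glucocorticoid receptor, had 593 and 908 (log2 ratio 0.61). *Tat* (log2 ratio 0.09) and *Mt2* (log2 ratio 0.08) were the most abundant of the rest. *Tat* also stands in the fasting list, and *Tsc22d3* in the list of clock outputs. Of 9 heat shock genes, 5 were higher and 0 past 1.5-fold, with *Hspa8* at a log2 ratio of 0.11 and *Hsp90aa1* at -0.34.

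Reads per library were also recovered for *Bhlhe41*, the relative of *Bhlhe40*, named after its values were seen. It had 62.7 ± 24.2 normalized reads in KO and 66.6 ± 6.45 in WT (SD, n = 3, exact permutation test, p = 0.8).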
